A study of Mus musculus with 6 samples.

Results

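The genes examined here were 8 that carry growth inhibition by myelin and proteoglycans into the axon. They were chosen by symbol, when earlier results of these data were already known. They were the ligand Rtn4, the Nogo receptors Rtn4r, Rtn4rl1 and Rtn4rl2, the co-receptor Lingo1, the proteoglycan receptors Ptprs and Ptprf, and the effector Rhoa. All 8 were found among the 24060 genes of the table, and all 8 had enough reads to be tested. Retinal ganglion cells (RGCs), the neurons whose axons form the optic nerve, were isolated from C57BL/6 mice at embryonic day 18 (E18) and postnatal day 5 (P5), and RNA was sequenced from 3 samples of each age. The retinas were dissociated with papain, macrophages were first removed on antibody-coated dishes, and the RGCs were then held by an antibody against CD90, the product of Thy1. No treatment or transgene is named for either age. The number of animals behind a sample is not given, so p-values measure the spread between these samples, which may be technical. The comparison sets RGCs that readily extend axons beside older RGCs that do so poorly.

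Nogo, the product of Rtn4, is a reticulon of the endoplasmic reticulum that is also displayed on oligodendrocyte membranes, where it inhibits growing axons. It binds the Nogo receptor Rtn4r, a surface protein with no cytoplasmic part, which passes the signal through partners such as Lingo1 and the p75 neurotrophin receptor to the small GTPase RhoA. Active RhoA acts on actin and myosin and collapses the growth cone. Chondroitin sulphate proteoglycans act on the same axons through the receptor tyrosine phosphatases Ptprs and Ptprf.

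Between 81213639 and 114512853 reads were assigned to genes in a sample. In the tests, adjusted p is from edgeR's quasi-likelihood fit and SE is the standard error of a log2 fold change of E18 over P5. Levels are given as CPM, the counts per 1000000 counted reads after TMM scaling. Of 14 RGC marker genes, all were tested, and their summed level was 8216 to 9693 CPM at E18 and 8705 to 10001 CPM at P5. Singly, 3 of them were called higher at E18, 4 lower and 7 did not pass. Thy1, whose product held the cells, was lower at E18 (log2 fold change -1.16, edgeR adjusted p = 0.00197) and was named after its value was seen. The 9 microglial markers summed to at most 2.76 CPM in any sample. The 11 oligodendrocyte lineage markers summed to 93.3 to 93.9 CPM at E18 and 56.6 to 74.8 CPM at P5. Of the 7 tested, 1 was called higher at E18, 2 lower and 4 did not pass, with a median log2 fold change of 0.22. The 10 markers of Müller glia and astrocytes were also higher at E18 in sum, with 421 to 466 CPM against 337 to 352 CPM. Of the 9 tested, 2 were called higher at E18, 1 lower and 6 did not pass, with a median log2 fold change of 0.41. Glul, 1 of the 2 called higher, made up most of this sum, with a mean of 286 CPM over the 6 samples. Its log2 fold change was 0.35 (edgeR adjusted p = 0.0138), and it was named after its value was seen. The 8 photoreceptor markers summed to at most 11.3 CPM, and the 7 bipolar markers to 49.7 to 74.3 CPM at E18 and 69.9 to 97.4 CPM at P5. The bipolar list went both ways, with 2 of 5 tested genes called higher at E18, 2 lower and a median log2 fold change of 1.29. No marker of the 9 lists was at 0 in every sample, and the part of these lists in the results that follow was not tested unless a value is given. E18 replicates 1 and 3 stood apart in the 9 amacrine markers, whose sum was 764 and 960 CPM against 639 CPM in E18 replicate 4 and 527 to 654 CPM at P5. Gene by gene, 5 of these 9 markers were called higher at E18 and the other 4 did not pass, with a median log2 fold change of 2.57. Pax6, 1 of those 4, made up most of these sums, with a mean of 614 CPM over the 6 samples. Its log2 fold change was 0.30 (edgeR adjusted p = 0.0601), and it was named after its value was seen. E18 replicate 1 also held 340 CPM of the 12 dividing-cell markers, against 137 and 84.9 CPM in E18 replicates 3 and 4 and 65.7 to 83.2 CPM at P5. The 8 markers of endothelial cells and pericytes summed to 73.1, 65.2 and 17.2 CPM in E18 replicates 1, 3 and 4 and to 15.7 to 18.9 CPM at P5. Taken singly, 1 of 7 tested was called higher at E18, 3 lower and 3 did not pass, with a median log2 fold change of -0.61. In bulk RNA a smaller number of cells of a type and less RNA per cell cannot be told apart.

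Of the 8 genes, Ptprs and Ptprf were higher at E18 and Rtn4r was lower, whereas the other 5 did not pass the threshold (adjusted p under 0.05 in edgeR's quasi-likelihood test). The 3 called genes were 37.5% of the set, and 43.4% of all 16449 genes tested were called, 20.8% as higher at E18 and 22.5% as lower. The differences in this set were small. Their median size was 0.17 on the log2 scale, against 0.39 over all genes tested, and 0 of the 8 reached a 2-fold difference, against 17.8% of all genes. The samples of the ages did not overlap for 3 of the 8 genes, Ptprs, Ptprf and Rhoa, whereas 56.1% of all genes tested showed no overlap. Without E18 replicates 1 and 3, 0 of the 8 genes passed in edgeR or in DESeq2, 2 of them (Ptprs and Ptprf) had an unadjusted p under 0.05, and 9.48% of all genes tested were then called.

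**Figure D1:**
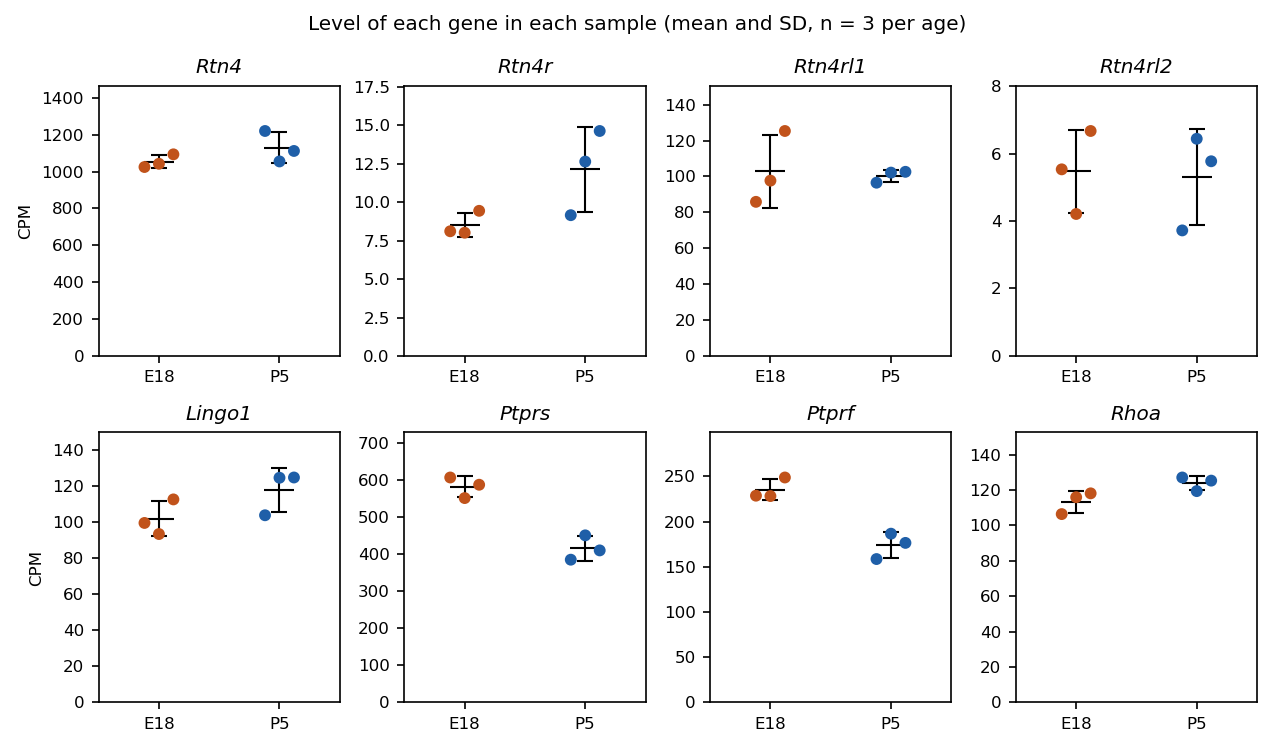
Level of the 8 genes in each sample, in CPM on axes that start at 0, with E18 samples in orange, P5 samples in blue and bars for the mean and SD of 3 samples. Ptprs and Ptprf lie higher in every E18 sample than in any P5 sample, whereas Rtn4, Rtn4rl1 and Rtn4rl2 overlap between the ages.

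Of the 8 genes, Ptprs had the lowest adjusted p. It encodes PTPσ, a transmembrane phosphatase that binds chondroitin sulphate chains (chr17:56412426-56476483 of mm10, minus strand). Its level was 607, 552 and 588 CPM in E18 replicates 1, 3 and 4, and 385, 451 and 411 CPM in P5 replicates 6, 8 and 9. Every E18 sample was above every P5 sample. The mean was 582 ± 28.2 CPM at E18 and 416 ± 33.2 CPM at P5 (mean ± SD, n = 3), a 1.40-fold difference. The log2 fold change of E18 over P5 was 0.49 (SE 0.0905, edgeR adjusted p = 0.00352).

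Ptprf encodes LAR, the founding member of the same phosphatase family (chr4:118208213-118291405 of mm10, minus strand). Its level was 229, 228 and 249 CPM in E18 replicates 1, 3 and 4, and 159, 187 and 176 CPM in P5 replicates 6, 8 and 9. Here, too, the ages did not overlap. The means of 235 ± 11.7 and 174 ± 14.2 CPM (mean ± SD, n = 3) differed 1.35-fold, with a log2 fold change of 0.44 (SE 0.0928, edgeR adjusted p = 0.00629). In E18 replicate 4 the summed amacrine and dividing-cell markers were the lowest of the E18 samples. Its summed markers of Müller glia and astrocytes (421 CPM) and of the oligodendrocyte lineage (93.6 CPM) were above every P5 sample. Gene by gene, both of these glial lists had markers called higher at E18 and markers called lower. The part of any of these lists was not tested. With that sample as the only one of E18, the log2 fold changes were 0.51 for Ptprs and 0.53 for Ptprf, and neither passed (adjusted p = 0.0804 and 0.0887).

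The ratio of the phosphatases overlapped between the ages. Ptprs had 2.66, 2.42 and 2.36 times the counts of Ptprf in E18 replicates 1, 3 and 4, and 2.43, 2.42 and 2.33 times in P5 replicates 6, 8 and 9. The log2 ratio was 1.31 ± 0.0896 at E18 and 1.26 ± 0.0344 at P5 (mean ± SD, n = 3), and the difference of 0.05 was within the spread (two-sided exact permutation p = 0.5). Without E18 replicate 1 the difference was -0.00065. The third member of the family, Ptprd, had 547 ± 123 CPM at E18 and 451 ± 54.0 CPM at P5 (mean ± SD, n = 3), with overlapping samples and a log2 fold change of 0.28 (edgeR adjusted p = 0.186). Ptprd was named after its value was seen.

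The 250 bases before the transcription start are shown for both phosphatase genes, since these were the 2 of the 8 genes called higher at E18. The sequences are those of RefSeq on GRCm38.p6, read 5′ to 3′ on the minus strand, at chr17:56476481-56476730 for Ptprs and chr4:118291398-118291647 for Ptprf. Capitals mark the E-box CACGTG, a letter run chosen after the sequences were read.
Ptprs: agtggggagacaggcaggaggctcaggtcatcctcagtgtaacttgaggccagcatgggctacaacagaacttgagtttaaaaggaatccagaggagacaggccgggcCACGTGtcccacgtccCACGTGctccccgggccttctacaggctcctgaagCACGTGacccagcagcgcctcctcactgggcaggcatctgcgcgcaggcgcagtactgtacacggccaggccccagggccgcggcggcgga
Ptprf: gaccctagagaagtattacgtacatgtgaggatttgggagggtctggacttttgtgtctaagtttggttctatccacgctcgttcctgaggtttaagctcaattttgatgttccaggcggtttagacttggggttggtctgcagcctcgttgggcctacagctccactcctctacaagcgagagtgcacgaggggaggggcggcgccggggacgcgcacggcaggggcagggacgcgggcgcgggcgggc
The Ptprs window held CACGTG at 3 places, which begin 142, 126 and 91 bases before the start. The Ptprf window held none, and neither did the window of the second Ptprs start in the table. The same 6 letters occurred in 6.02% of the 32851 promoter windows of this length in the table, and the motif reads the same on both strands. The binding letters of Elk-1, the factor that the study went on to examine, were searched as CCGGAAGC, CCGGAAGT, GCGGAAGC and GCGGAAGT on both strands. Neither window held them, against 6.86% of all windows. Promoter windows were found for 7 of the 8 genes, 12 windows in all, and Rtn4rl1 had none here. Only the window of the second Rhoa start held the Elk-1 letters, 47 bases before that start on the plus strand (chr9:108306740-108306767), shown with 10 bases on each side and the match in capitals.
Rhoa: cgcgcagtccCCGGAAGCgcgccccgcc

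Rtn4, the source of Nogo, was the most abundant of the 8 genes (chr11:29692947-29744331 of mm10, plus strand). Its level was 1025, 1042 and 1094 CPM in E18 replicates 1, 3 and 4, and 1220, 1055 and 1112 CPM in P5 replicates 6, 8 and 9. The ages overlapped. The means of 1054 ± 35.7 and 1129 ± 83.9 CPM (mean ± SD, n = 3) gave a log2 fold change of -0.10, with a 95% confidence interval of -0.29 to 0.09 (edgeR adjusted p = 0.369). The counts belong to the whole gene, so the Nogo-A, Nogo-B and Nogo-C forms were not separated. Eml6 on the opposite strand shares 1284 bases with the exons of Rtn4, 19.6% of their length, and whether the counting used strand is not given in the sources used here.

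Rtn4r, the receptor to which Nogo binds, was scarce (chr16:18127642-18152408, plus strand). It had 673, 899 and 855 reads in E18 replicates 1, 3 and 4, or 8.11, 8.02 and 9.44 CPM. In P5 replicates 6, 8 and 9 it had 812, 1245 and 1377 reads, or 9.16, 12.6 and 14.6 CPM. P5 replicate 6 lay below the highest E18 sample, so the ages overlapped. The means of 8.52 ± 0.797 and 12.1 ± 2.77 CPM (mean ± SD, n = 3) gave a log2 fold change of -0.51, 1.43-fold higher at P5 (SE 0.183, edgeR adjusted p = 0.0497). The call stood at the edge of the threshold and was lost in 9 of 15 alternative fits, and over the 15 the adjusted p ranged from 0.0145 to 0.507. It was lost without E18 replicate 1 (0.139), E18 replicate 3 (0.153), E18 replicate 4 (0.0625), P5 replicate 8 (0.0740) or P5 replicate 9 (0.162).

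Rtn4rl1 encodes NgR3, a homolog that binds proteoglycans (chr11:75193783-75267769, plus strand). Its level was 85.8, 97.7 and 125 CPM in E18 replicates 1, 3 and 4, and 96.5, 102 and 103 CPM in P5 replicates 6, 8 and 9. The E18 samples spread more widely than the P5 samples and enclosed them. The log2 fold change was 0.04 (95% confidence interval -0.27 to 0.34, edgeR adjusted p = 0.846), and it turned negative without E18 replicate 4 (-0.13) or P5 replicate 6 (-0.01). Rtn4rl2 encodes NgR2, a homolog that binds the myelin-associated glycoprotein (chr2:84871924-84886710, minus strand). It had 5.53, 4.21 and 6.67 CPM in E18 replicates 1, 3 and 4, and 3.72, 6.44 and 5.77 CPM in P5 replicates 6, 8 and 9, with full overlap. Its log2 fold change of 0.04 had a 95% confidence interval of -0.53 to 0.61 (edgeR adjusted p = 0.905) and became -0.13 without E18 replicate 4 and -0.18 without P5 replicate 6. The interval of Rtn4rl2, the receptor with the fewest reads, was the widest of the 8 genes.

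Within the Nogo receptor family most of the reads were those of Rtn4rl1. Rtn4r took 8.15, 7.30 and 6.68% of the reads of the 3 receptors in E18 replicates 1, 3 and 4, and 8.37, 10.4 and 11.9% in P5 replicates 6, 8 and 9. Every P5 sample was above every E18 sample. The means were 7.38 ± 0.742 and 10.2 ± 1.77% (mean ± SD, n = 3), a difference of -2.86 percentage points for E18 minus P5. The two-sided exact permutation p was 0.1, the smallest that 3 samples against 3 can give, and 0.15 after Benjamini-Hochberg adjustment over the 3 ratios tested, of which 2 are given here. Per kilobase of exon, Rtn4r made up 10.7 to 12.7% of the family at E18 and 13.5 to 18.32% at P5, Rtn4rl1 74.0 to 78.8% and 70.6 to 78.1%, and Rtn4rl2 9.48 to 13.3% and 8.41 to 12.6%.

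**Figure D2:**
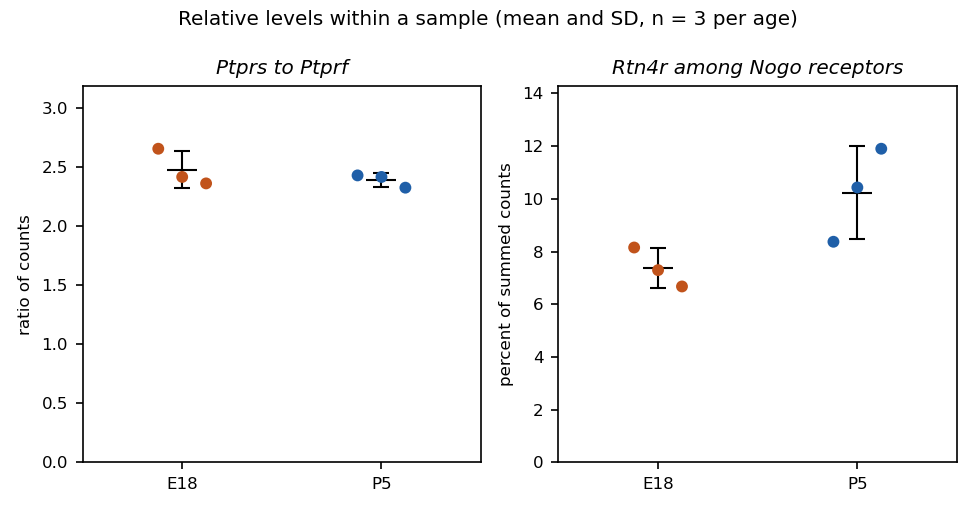
Relative levels within each sample, as the ratio of Ptprs to Ptprf counts and Rtn4r as a percentage of the counts of the 3 Nogo receptors, with E18 samples in orange, P5 samples in blue and bars for the mean and SD of 3 samples. The Ptprs to Ptprf ratios overlap between the ages, whereas Rtn4r takes 6.68 to 8.15% at E18 and 8.37 to 11.9% at P5.

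Lingo1 encodes a leucine-rich repeat protein that joins the receptor complex (chr9:56618475-56796468, minus strand). Its level was 99.6, 93.4 and 113 CPM in E18 replicates 1, 3 and 4, and 104, 125 and 125 CPM in P5 replicates 6, 8 and 9. P5 replicate 6 lay within the E18 range. The means of 102 ± 9.81 and 118 ± 12.1 CPM (mean ± SD, n = 3) gave a log2 fold change of -0.21 (95% confidence interval -0.46 to 0.04, edgeR adjusted p = 0.156).

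**Figure D3:**
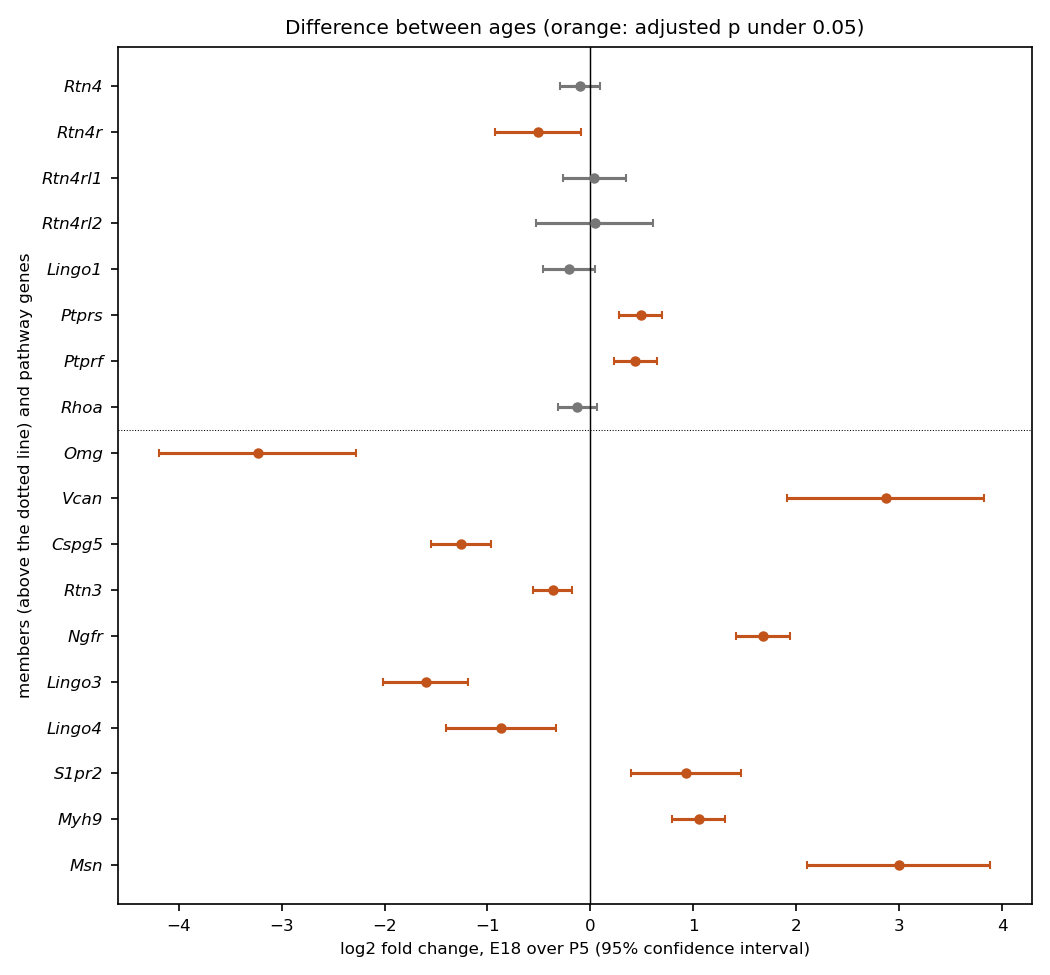
Log2 fold change of E18 over P5 with its 95% confidence interval for the 8 genes (above the dotted line) and for 10 other pathway genes, with orange for an adjusted p under 0.05. The intervals of Rtn4, Lingo1 and Rhoa lie within 0.5 of 0 on the log2 scale, whereas those of Omg, Vcan and Msn lie past 1.

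The effector differed little. Rhoa, the GTPase on which the receptor signals converge (chr9:108306129-108337934, plus strand), had 106, 116 and 118 CPM in E18 replicates 1, 3 and 4, and 127, 119 and 125 CPM in P5 replicates 6, 8 and 9. The E18 samples were all below the P5 samples, by as little as 1.26 CPM between the nearest. The log2 fold change was -0.13 (95% confidence interval -0.32 to 0.07, edgeR adjusted p = 0.252). The antisense gene Gm37401 shares 14.7% of the exon length of Rhoa.

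Levels of different genes were compared as CPM per kilobase of exon, with exon lengths from the GENCODE transcripts that are linked to RefSeq. At E18 the order of mean levels was Rtn4 (161 ± 5.46), Ptprs (83.5 ± 4.04), Rhoa (51.7 ± 2.84), Ptprf (30.7 ± 1.53), Rtn4rl1 (29.2 ± 5.75), Lingo1 (26.5 ± 2.55), Rtn4r (4.40 ± 0.411) and Rtn4rl2 (4.33 ± 0.9752 CPM per kilobase; mean ± SD, n = 3). The sample ranges of Ptprf and Rtn4rl1, of Rtn4rl1 and Lingo1, and of Rtn4r and Rtn4rl2 overlapped, so these neighbours were not separated. At P5 Rtn4 was again at the top with 173 ± 12.8, and Ptprs with 59.6 ± 4.75 was no longer separated from Rhoa with 56.4 ± 1.84 CPM per kilobase (mean ± SD, n = 3). Ptprf moved from position 4 to position 6, with 22.7 ± 1.85, below Lingo1 with 30.6 ± 3.13 and Rtn4rl1 with 28.5 ± 0.959 CPM per kilobase (mean ± SD, n = 3). With the exons of all GENCODE transcripts as the length, Rtn4 stayed at position 1 and Rtn4rl2 at position 8 at both ages, but Rhoa moved from position 3 to position 6, so the order in between depends on the transcripts assumed.

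**Figure D4:**
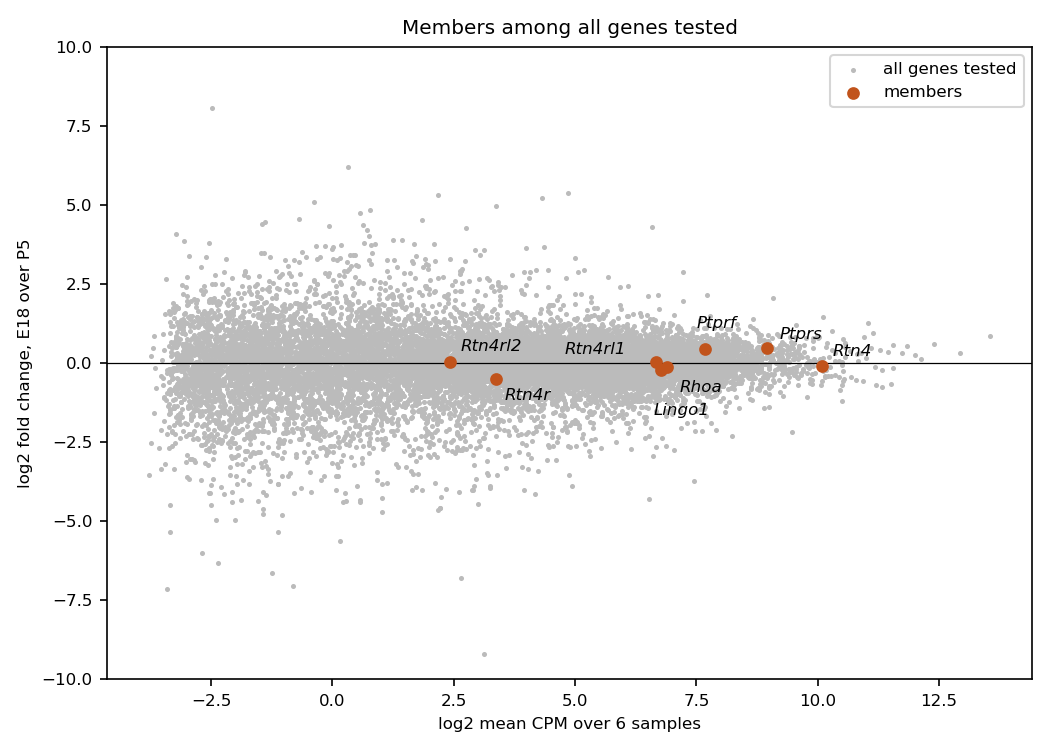
Mean level over 6 samples (log2 CPM) against the log2 fold change of E18 over P5 for all 16449 genes tested (grey) and the 8 genes (orange). The 8 genes lie between -0.51 and 0.49 on the vertical axis, and Rtn4 has the highest level among them.

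The rest of the pathway was followed in 4 lists of 46 genes, of which 45 were in the table and tested, and 19 of them passed, 11 higher and 8 lower at E18. This is 42.2%, near the 43.4% of all genes. The median log2 fold change was 0.05 over these genes and 0.00 over all genes tested. A fit without E18 replicates 1 and 3 rests on E18 replicate 4 alone for that age. Among the genes named by the rule, Rtn3, Lingo4 and S1pr2 lost their calls in it. Their log2 fold changes were then -0.33, -0.66 and 1.04.

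Among 8 myelin and proteoglycan ligands, 1 was higher at E18, 4 were lower and 3 did not pass (all genes tested: 20.8% higher, 22.5% lower). Omg, the oligodendrocyte myelin glycoprotein and a ligand of the Nogo receptor that neurons also make, had 1.74, 1.42 and 1.18 CPM in E18 replicates 1, 3 and 4, and 8.84, 8.27 and 23.6 CPM in P5 replicates 6, 8 and 9. It was 9.40-fold higher at P5 (log2 fold change -3.23, SE 0.421, edgeR adjusted p = 0.000810), and P5 replicate 9 was the highest by far. Without that sample its log2 fold change was -2.57 (edgeR adjusted p = 0.000378). Omg lies inside the body of Nf1 on the opposite strand, with no exon in common. The level of Nf1 itself, named after its value was seen, was 178 ± 19.6 CPM at E18 and 180 ± 19.8 CPM at P5 (mean ± SD, n = 3). Oligodendrocyte lineage markers summed to less at P5 than at E18. Of 7 tested, 1 was called higher at E18, 2 lower and 4 did not pass, and their part in the Omg result was not tested. Mag, another of the 8 ligands, had 0.893 ± 0.139 CPM at E18 and 1.97 ± 0.109 CPM at P5 (mean ± SD, n = 3). It was 2.21-fold higher at P5 (edgeR adjusted p = 0.00446) and was named after its value was seen.

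Cspg5, a transmembrane proteoglycan of neurons, had 71.7 ± 9.17 CPM at E18 and 171 ± 21.4 CPM at P5 (mean ± SD, n = 3), 2.39-fold higher at P5 (edgeR adjusted p = 0.000326). Vcan, which encodes the matrix proteoglycan versican, changed the opposite way. It had 234, 403 and 154 CPM in E18 replicates 1, 3 and 4, and 37.1, 52.1 and 19.3 CPM in P5 replicates 6, 8 and 9, a log2 fold change of 2.87 (SE 0.421, edgeR adjusted p = 0.00130). The order of the E18 samples was that of the summed amacrine markers, which were mostly Pax6, highest in replicate 3 and lowest in replicate 4. This was 1 of 9 marker lists, 3 samples can share an order without any link, and the part of those markers in this result was not tested. With E18 replicate 4 as the only E18 sample, the log2 fold change of Vcan was 2.10 (edgeR adjusted p = 0.00597).

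Of the 3 other reticulons, 1 passed, beside 43.4% of all genes tested. Rtn3 had 420 ± 10.4 CPM at E18 and 541 ± 36.3 CPM at P5 (mean ± SD, n = 3), a log2 fold change of -0.37 (edgeR adjusted p = 0.00866). The others, Rtn1 and Rtn2, had log2 fold changes of -0.17 and -0.05 and did not pass.

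Among 11 other receptors and co-receptors, 4 were higher at E18, 3 were lower and 4 did not pass (all genes tested: 20.8% higher, 22.5% lower). The clearest was Ngfr, the p75 neurotrophin receptor that partners with Rtn4r and Lingo1. It had 52.5, 54.3 and 66.1 CPM in E18 replicates 1, 3 and 4, and 18.31, 17.3 and 18.5 CPM in P5 replicates 6, 8 and 9, with a wide gap between the ages. It was 3.19-fold higher at E18 (log2 fold change 1.68, SE 0.116, edgeR adjusted p = 9.07e-05). Tnfrsf19, which encodes TROY, a substitute for p75 in the complex, had 3.96 ± 0.228 CPM at E18 and 5.81 ± 1.58 CPM at P5 (mean ± SD, n = 3) and did not pass (edgeR adjusted p = 0.0756). It was named after its value was seen.

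S1pr2, a sphingosine phosphate receptor to which a part of Nogo-A binds, had 13.3 ± 1.21 CPM at E18 and 7.03 ± 2.42 CPM at P5 (mean ± SD, n = 3), a log2 fold change of 0.92 (edgeR adjusted p = 0.0136), and it lost its call without P5 replicate 6 (adjusted p = 0.0539). Of the 3 relatives of Lingo1, Lingo3 and Lingo4 were lower at E18. Lingo3 had 4.91 ± 0.489 and 14.9 ± 3.28 CPM at E18 and P5 (mean ± SD, n = 3), 3.03-fold higher at P5 (edgeR adjusted p = 0.000463). Lingo4 had 2.404 ± 0.318 and 4.40 ± 1.09 CPM (mean ± SD, n = 3) with an adjusted p of 0.0175, and this call was lost without E18 replicate 1 (0.0525), E18 replicate 3 (0.0739), P5 replicate 6 (0.0592) or P5 replicate 9 (0.0592). Lingo2 did not pass (log2 fold change -0.13, edgeR adjusted p = 0.345) and was named after its value was seen.

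**Figure D5:**
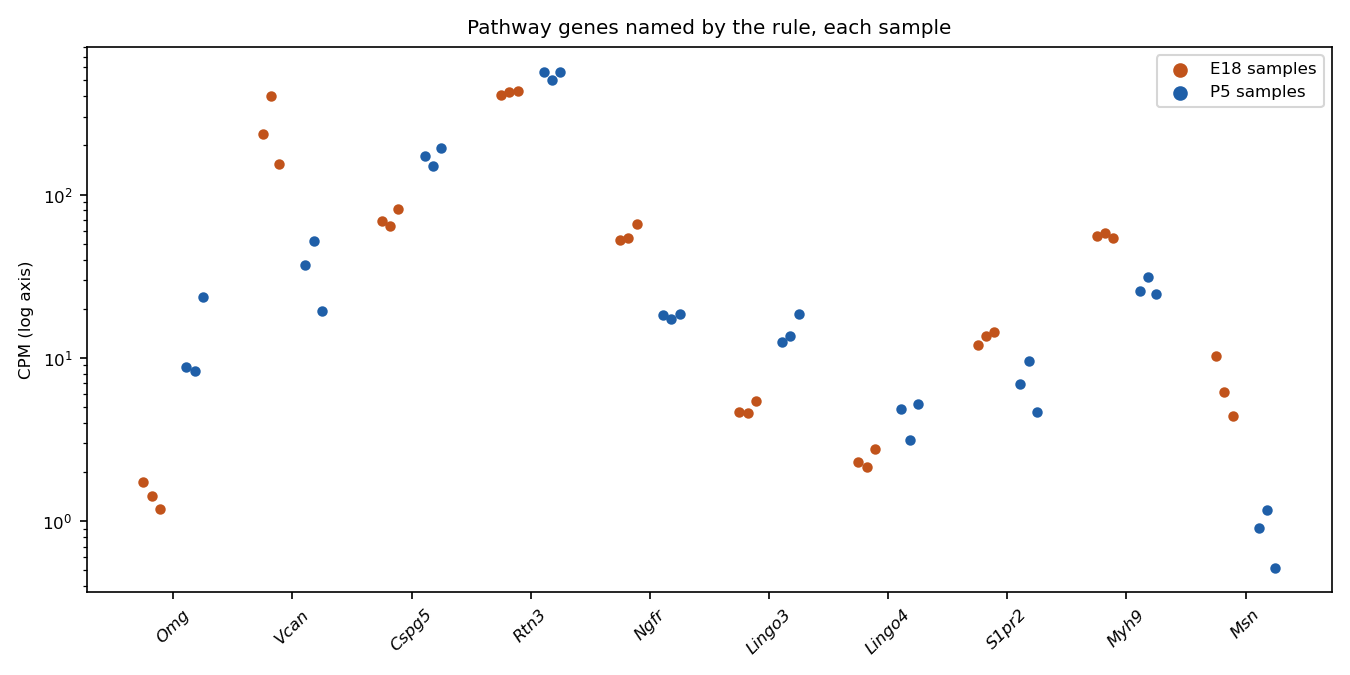
Level of 10 pathway genes in each sample, in CPM on a log axis, with E18 samples in orange and P5 samples in blue. Ngfr lies at 52.5 to 66.1 CPM at E18 and 17.3 to 18.5 CPM at P5, and Omg at 1.18 to 1.74 and 8.27 to 23.6 CPM.

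Of 23 cytoskeletal targets of RhoA signalling, 6 were higher at E18, 0 were lower and 17 did not pass (all genes tested: 20.8% higher, 22.5% lower). Among the 17 were Cfl1 (log2 fold change 0.12) and Limk1 (0.10), which were named after their values were seen. Only Cfl2, a cofilin named after its value was seen, was lower at E18 with an unadjusted p under 0.05 in edgeR, and DESeq2 called it as lower (1 gene). Myh9, a heavy chain of non-muscle myosin II, had 56.0, 58.0 and 54.5 CPM in E18 replicates 1, 3 and 4, and 25.5, 31.2 and 24.5 CPM in P5 replicates 6, 8 and 9. It was 2.07-fold higher at E18 (log2 fold change 1.05, SE 0.114, edgeR adjusted p = 0.000387). Msn, the actin linker moesin, had 10.2, 6.18 and 4.40 CPM in E18 replicates 1, 3 and 4, and 0.914, 1.18 and 0.521 CPM in P5 replicates 6, 8 and 9 (log2 fold change 2.99, edgeR adjusted p = 0.000839). Its order among the E18 samples was that of the summed markers of dividing cells, of endothelial cells and pericytes, of Müller glia and astrocytes and of photoreceptors, whose part in this result was not tested. With E18 replicate 4 as the only E18 sample its log2 fold change was 2.34 (edgeR adjusted p = 0.00761).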

How the data were processed

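RNA from 3 E18 and 3 P5 samples of immunopanned RGCs was depleted of ribosomal RNA, although the labels name polyA RNA, and sequenced as paired-end reads. STAR (mm10) and HT-seq (RefSeq genes) were run by the authors, whose deposited raw counts are the values used here. In its column name, E18 replicate 1 also bears 2 and 5, so it may be a pool of several preparations, which the sources used here do not state. The authors' normalized counts are a signal scaled to library size, and the deposited log2 fold changes, p-values and rank score are the authors' own comparison. None of these was used.

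Genes that passed filterByExpr (16449 of 24060) were scaled by TMM and fitted by the quasi-likelihood method (edgeR 4.0.16, R 4.3.3), and p-values were adjusted by the Benjamini-Hochberg method over all genes tested, with a threshold of 0.05. Standard errors and 95% confidence intervals were computed back from the test statistic of this fit, so they are not independent of its p-values. In simulated counts for 16295 genes with 200 changed 2-fold between E18 and P5, 128 were recovered with 12 false calls. Far fewer genes changed there than the 43.4% called in the data, and 0 of the 8 members reached 2-fold. The simulation therefore does not show how often differences of the size seen in the members are recovered. Samples of an age differed by 30.5 to 141 times the counting noise per degree of freedom (chi-square), so the spread between samples sets the precision. Ratios within a sample were compared by exact permutation.

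By symbol 10 genes were chosen, of which 2, with 1 pathway list and 1 marker gene, are not reported here. The genes and lists were chosen with earlier results of these data known. Other genes named were, in each pathway list, up to 2 with the largest rise and up to 2 with the largest fall among called genes whose ages did not overlap and whose mean reached 1 CPM, which gave 10. Diaph1 was found under its older symbol Diap1, and 1 pathway symbol, Lilrb3, was not matched. Coordinates and exon lengths are from GENCODE M21. DESeq2 1.42.0, voom in limma 3.58.1, edgeR's exact test, other scalings and filters and the omission of samples were the alternatives.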

Additional observations from a re-analysis of the deposited data

How the results depend on the processing

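Over 15 alternatives, 247 of 270 values of the 8 members and 10 pathway genes kept their direction and their side of the threshold, 19 lost a call and 4 changed sign, the latter all of Rtn4rl1 and Rtn4rl2, neither of which passed. Without E18 replicate 4 and without P5 replicate 6, Rtn4rl1 had log2 fold changes of -0.13 and -0.0094, and Rtn4rl2 of -0.13 and -0.18. Leaving out each sample in turn took Rtn4rl1 from -0.13 to 0.16 and Rtn4rl2 from -0.18 to 0.20.

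Leaving out 1 sample at a time gave 4575 (without E18 replicate 3) to 8796 (without P5 replicate 8) genes called, 27.3 to 52.5% of all genes tested. The members called were 2 to 3 (25 to 37.5%) and the pathway genes 14 to 26 (31.1 to 57.8%). The log2 ratio of Ptprs to Ptprf then differed between the ages by -0.00065 (without E18 replicate 1) to 0.084, and the share of Rtn4r by -3.79 to -2.03 percentage points. Per kilobase the difference in that share was -4.25 points.

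Without both E18 replicates 1 and 3, an alternative chosen after seeing the data, E18 replicate 4 is assumed to vary like the P5 samples, and 1633 genes, 0 members and 8 pathway genes were called. This fit has 4 samples.

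The other tests, scalings and filters called 2 or 3 members (25 to 37.5%) and 18 to 22 pathway genes (40 to 48.9%). Of all genes tested they called 33% (no filter on low counts) to 47.1% (at least 1 CPM in 3 samples). The call of Rtn4r was lost with voom (adjusted p = 0.0624), upper-quartile scaling (0.0535) and no filter on low counts (0.0513). The median of all genes moved by at most 0.03 on the log2 scale. No paired analysis was possible because the ages share no replicate number.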
